A study of Mus musculus with 16 samples.

Results

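Activity-regulated synaptic effector genes were examined in the brains of aged mice treated with adropin(34-76) or saline. The set held 10 genes, chosen by symbol from the 40481 genes listed for the series: Arc, Bdnf, Npas4, Homer1, Nptx2, Nrn1, Vgf, Scg2, Pcsk1 and Inhba. They are neuronal genes whose transcription follows synaptic activity, and the AP-1, EGR and NR4A transcription factors were kept out of the set by its definition. All 10 genes passed the filter on low values that left 14949 genes for testing.

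Synaptic input that raises calcium in a neuron activates transcription factors such as CREB, SRF and MEF2 that are already present in the cell, and these switch on a first wave of genes within minutes. Some of that wave are transcription factors, and others, such as Arc and the short form of Homer1, act directly at the synapse. A later wave includes secreted and membrane proteins (Bdnf, Nptx2, Nrn1, Inhba) and proteins of the dense-core vesicle (Vgf, Scg2, Pcsk1), through which neuropeptides and neurotrophins are stored, processed and released. In the forebrain these genes are used as readouts of recent neuronal firing and are studied for their roles in synaptic plasticity and memory.

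The mice were males of 18 months with no engineered allele, of strain C57BL by the labels and C57BL/6J by the study's own account. The adropin group (n = 8) received 90 nmol/kg/d of adropin(34-76), the putative secreted domain of a small peptide hormone, by intraperitoneal injection once a day in 0.9% saline with 0.1% BSA, and the saline group (n = 8) received the diluent alone. Per the study's methods, behavioural testing in both groups followed 2 weeks of treatment, injections went on through the tests, and brain tissue was taken after a 6 h fast. The sequenced mice came from groups of 15, and how the 8 of each were picked and which brain region was taken are not given in the sources used here. Below, a mouse is called by the number pair of its label.

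Whole-tissue RNA was read, so fewer cells that express a gene and less RNA per cell cannot be told apart in any value below. Reads counted to genes ranged from 35185051 to 70314050 per mouse with adropin and from 35026503 to 47245785 with saline. The tissue label was checked against its defining markers: summed levels of 4 excitatory neuron markers ran from 5180 to 6660 CPM (read counts scaled to a common library size) with adropin and from 4710 to 6340 with saline, and none of the 4 passed an unadjusted p of 0.05. Saline mouse 8_3 stood apart, with a summed level of 6 choroid plexus markers of 2470 CPM against a saline median of 21.0 and an adropin range of 11.3 to 73.6, and with 281 CPM for 4 cerebellar markers against an adropin range of 15.9 to 37.8. Results without mouse 8_3 are given where a call changed.

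The calcium-responsive factor CREB binds the cyclic AMP response element (CRE), spelled TGACGTCA, and its shorter core TGACG. RefSeq promoter windows of 300 bases (250 before and 50 after a start site, mouse build GRCm38.p6) held entries for 6 of the 10 genes, 13 entries in all, since Bdnf alone has 7 start sites there. The full element, read on both strands, was found in 2 of the 13 windows, those of Scg2 and Pcsk1, and in 1.79% of all 32851 mouse promoter windows. The core, which lies within the full element, was found in the windows of 5 of the 6 genes (Bdnf, Npas4, Homer1, Scg2 and Pcsk1; none in Inhba) which is 5 of the 13 windows (1 of 7 for Bdnf and 1 of 2 for Homer1), and in 20.8% of all windows. The 120 bases before the start site are printed for 4 genes that carry a match there, to show where the letters of the element lie in genes of the set, written 5′ to 3′ in the direction of the gene. Capitals mark the full element in Scg2 and Pcsk1 and the core in Homer1 and Bdnf; in Bdnf, at the third of its 7 start sites, the core is on the opposite strand and so reads CGTCA.
Scg2 (chr1:79440027-79440146, minus strand): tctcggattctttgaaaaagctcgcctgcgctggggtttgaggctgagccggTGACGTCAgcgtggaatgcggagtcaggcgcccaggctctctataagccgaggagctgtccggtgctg
Pcsk1 (chr13:75089737-75089856, plus strand): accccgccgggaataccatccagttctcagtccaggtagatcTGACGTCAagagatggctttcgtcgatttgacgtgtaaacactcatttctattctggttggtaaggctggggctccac
Homer1 (chr13:93303637-93303756, plus strand): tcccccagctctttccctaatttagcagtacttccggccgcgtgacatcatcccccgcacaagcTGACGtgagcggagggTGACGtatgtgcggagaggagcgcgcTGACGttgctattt
Bdnf (chr2:109692316-109692435, plus strand): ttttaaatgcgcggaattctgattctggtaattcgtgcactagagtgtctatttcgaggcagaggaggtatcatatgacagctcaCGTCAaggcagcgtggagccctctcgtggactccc
The match began 68 bases before the start site in Scg2, 78 in Pcsk1, 56, 40 and 14 in Homer1 and 35 in Bdnf. These matches are descriptions of sequence, and binding was not measured. Npas4 carries the core at 179 and 169 bases before its start, outside the printed stretch. Arc, Nptx2, Nrn1 and Vgf have no entry.

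The main question was whether the 10 genes differed between adropin and saline mice. Arc, Bdnf and Vgf were lower with adropin at an unadjusted p below 0.05 (3 of 10 genes), and no member was higher at that threshold. Over all 14949 genes the same threshold called 2.13% lower and 1.86% higher (318 and 278 genes). This balance depended on scaling, with 441 lower and 158 higher when library size was the only scaling. With limma-trend on the deposited CPM, which changed both the test and the scaling, there were 395 and 165. The balance also depended on single mice, with 524 and 921 without adropin mouse 4_3. Arc was the single member that also passed a fold of 1.5, the study's second cut-off, which 0.308% of all genes passed in that direction. No gene passed an adjusted p of 0.05 in edgeR's quasi-likelihood fit, adjusted by Benjamini-Hochberg over all genes (0% of those tested; 596 had an unadjusted p below 0.05, and DESeq2 called 2 genes, edgeR blocked on the second label number 2, and edgeR without adropin mouse 5_5 3), and the adjusted p of Arc, Bdnf and Vgf was 0.874.

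The log2 fold change (adropin over saline) was below 0 for 7 of the 10 members, against 50.8% of all genes. Its median was -0.12 over the members and -0.002 over all genes. Homer1, Pcsk1 and Inhba had values above 0. The members were chosen with earlier results of these data known, so neither these shares nor the share called above is a test of the set. Only the Arc interval reached past a fold of 1.5 while staying on 1 side of no change.

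**Figure D1:**
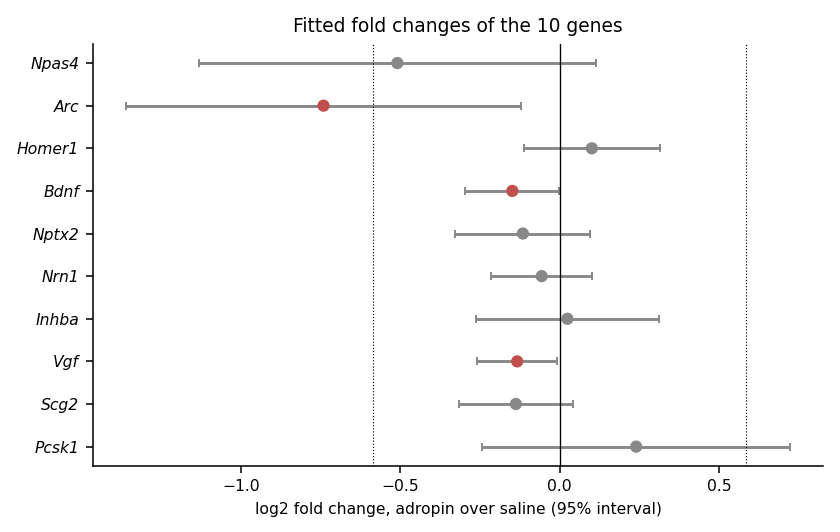
Fitted log2 fold change, adropin over saline, of each gene with its 95% interval (8 mice per group); red points have an unadjusted p below 0.05 and dotted lines mark a fold of 1.5 either way. The intervals of Arc, Bdnf and Vgf lie below 0, that of Bdnf ending close to it, and the widest are those of Npas4, Arc and Pcsk1.

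Among the genes of the first wave, Arc encodes a cytoskeletal protein that promotes removal of AMPA receptors from the synapse and forms capsids that carry RNA. It lies at chr15:74669083-74672570 (GRCm38, minus strand). Arc ranged from 110.7 CPM in adropin mouse 3_3 through a median of 178.4 to 425.9 in mouse 1_3, and from 174.1 in saline mouse 5_4 through a median of 437.5 to 573.5 in mouse 6_2. All 8 adropin mice lay below the saline median and 4 lay below every saline mouse, while the groups overlapped. Within the adropin group 5 mice stood between 110.7 and 186.4 CPM and 3 between 335.3 and 425.9. Within the saline group, mice 5_4 and 6_1 stood at 174.1 and 228.6, and the other 6 between 406.5 and 573.5. The means were 244 ± 129 CPM with adropin and 408 ± 139 with saline (SD, n = 8 each), a fold of 0.599 with a 95% interval of 0.390 to 0.919.

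The log2 fold change of Arc was -0.74 (SE 0.295, unadjusted p = 0.0217, adjusted p = 0.874, edgeR). An exact permutation test of the mean log2 CPM over all 12870 divisions of the mice, two-sided, gave p = 0.0348. The unadjusted p stayed below 0.05 when any single mouse was left out, from 0.00632 to 0.0441. With the first number of the mouse label as a block in the fit, the log2 fold change of Arc was -0.48 (unadjusted p = 0.223, edgeR). Only first numbers 2, 5 and 7 hold mice of both groups, so that fit compares treatments within these numbers alone. What the number stands for is not given in the sources used here.

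Npas4, a neuron-specific transcription factor induced by calcium entry, which sets the number of inhibitory synapses on a cell, lies at chr19:4984355-4990316 (minus strand). It ranged from 10.23 CPM in adropin mouse 3_3 through a median of 23.52 to 68.7 in mouse 5_5, and from 23.25 in saline mouse 5_4 through 43.83 to 54.89 in mouse 2_3. Adropin mouse 5_5 was above every saline mouse, and the other 7 adropin mice were below the saline median. The means were 28.7 ± 18.4 and 40.9 ± 11.2 CPM (log2 fold change -0.51, SE 0.297, unadjusted p = 0.103, edgeR; fold 0.703, 95% interval 0.456 to 1.08; exact permutation p = 0.0611). Without mouse 5_5 the log2 fold change was -0.82 with an unadjusted p of 0.00305. With all 16 mice, limma-voom, limma-trend and the fit blocked on the second label number also put Npas4 below 0.05 (unadjusted p = 0.035, 0.0271 and 0.0156), whereas DESeq2 gave an unadjusted p of 0.12 and the fit blocked on the first number a log2 fold change of -0.26 with an unadjusted p of 0.533. Mouse 5_5 is the only one with second number 5, so the fit blocked on the second number takes no treatment contrast from it. Both the mouse and the model bore on the side of the threshold where Npas4 fell.

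Homer1 encodes a postsynaptic scaffold that ties group I metabotropic glutamate receptors to Shank and the IP3 receptor. Neuronal activity induces a short form that uncouples the scaffold. The gene (chr13:93299635-93405129, plus strand) has 12 annotated transcripts of 625 to 5713 bases, and counts per gene do not separate the short form from the long ones. Homer1 ranged from 98.67 to 158.6 CPM with adropin (median 127.5) and from 98.43 to 139.4 with saline (median 119.8). Nearly the whole saline range lay within the adropin range, and 3 of 8 adropin mice were below the saline median. The means were 129 ± 23.6 and 120 ± 13.3 CPM, a fold of 1.07 with a 95% interval of 0.924 to 1.24 (unadjusted p = 0.335, edgeR).

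**Figure D2:**
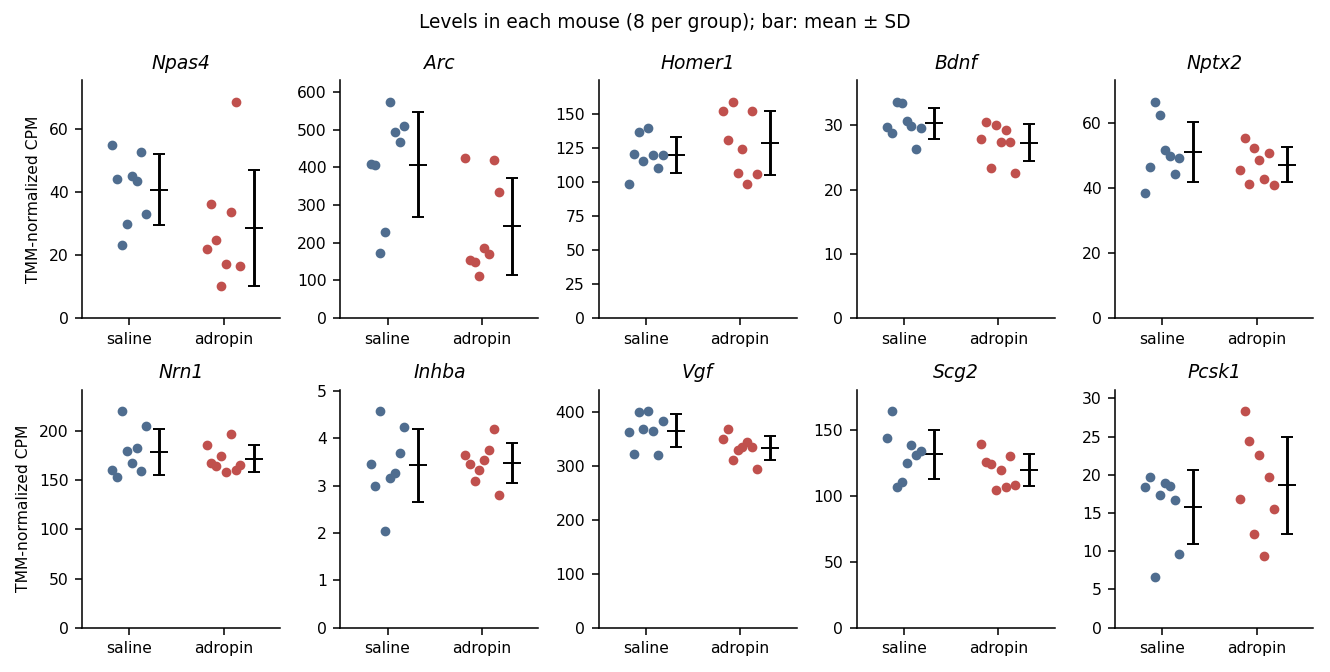
Level of each gene in every mouse, in TMM-normalized CPM on axes that start at 0; dots are mice (8 saline in blue, 8 adropin in red) and bars give the group mean ± SD. In the Arc panel 5 adropin mice sit between 110.7 and 186.4 and 6 saline mice between 406.5 and 573.5, in the Npas4 panel adropin mouse 5_5 stands above all others at 68.7, and the groups overlap in all 10 panels.

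Of the secreted and membrane factors, Bdnf, the neurotrophin that signals through TrkB to strengthen synapses, lies at chr2:109674700-109727007 (plus strand). Bdnf ranged from 22.61 CPM in adropin mouse 7_4 through a median of 27.72 to 30.57 in mouse 2_1, and from 26.31 in saline mouse 8_1 through 29.86 to 33.67 in mouse 5_4. Of the adropin mice 6 of 8 were below the saline median and 2 below every saline mouse, and 3 saline mice were above every adropin mouse. The means were 27.3 ± 2.94 and 30.3 ± 2.41 CPM, a fold of 0.902 with a 95% interval of 0.815 to 0.9993. The log2 fold change was -0.15 (SE 0.070, unadjusted p = 0.0486, adjusted p = 0.874, edgeR; exact permutation p = 0.0476). This call lay close to the threshold. It was kept in 3 of the 16 fits that left out 1 mouse, those without adropin mice 2_1 and 3_3 or saline mouse 8_1. In the other 13 it was lost, with unadjusted p up to 0.132 without adropin mouse 2_4 (edgeR). Over the 16 fits the log2 fold change stayed between -0.178 and -0.113. Blocking on the first number of the label gave Bdnf a log2 fold change of -0.23 (SE 0.110, unadjusted p = 0.0601, edgeR). Blocking on the second gave -0.135 (SE 0.082, unadjusted p = 0.121, edgeR). The call was thus lost in both blocked fits, while the log2 fold change remained negative and its SE was larger than without blocks. An antisense transcript, Gm45346, shares 896 exonic bases with Bdnf, and the strand setting of the counting is not given in the sources used here, so reads of the pair may not be separated.

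Nptx2 (neuronal pentraxin, which clusters AMPA receptors, mainly at excitatory synapses on interneurons) lies at chr5:144545902-144557478 (plus strand). It ranged from 41.06 to 55.61 CPM with adropin (median 47.09) and from 38.53 to 66.65 with saline (median 49.64). The adropin mice lay within the saline range, 5 of 8 below its median, with a fold of 0.923 (95% interval 0.797 to 1.07, unadjusted p = 0.267, edgeR).

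Nrn1 encodes neuritin, a lipid-anchored protein that promotes neurite and spine growth, at chr13:36725361-36735131 (minus strand). It ranged from 158.6 to 197.7 CPM with adropin (median 166.6) and from 153.1 to 220.4 with saline (median 173.8). All adropin mice lay within the saline range, with a fold of 0.962 (95% interval 0.862 to 1.07, unadjusted p = 0.465, edgeR). Exons of Nrn1 share 501 bases with Fars2 on the other strand, a gene with a median of 16.5 CPM, so the value of Nrn1 may hold some of its reads.

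Inhba, the activin A subunit, a neuroprotective ligand of the TGF-beta family, lies at chr13:16011851-16031621 (plus strand) and was the member with the fewest reads, from 95 to 246 counts per mouse. It ranged from 2.808 to 4.20 CPM with adropin (median 3.494) and from 2.049 to 4.574 with saline (median 3.355). The saline range enclosed every adropin mouse. The fold was 1.02 (95% interval 0.834 to 1.24, unadjusted p = 0.860, edgeR), and its direction turned when the label numbers entered the fit as blocks and when adropin mouse 5_5 or saline mouse 6_1 was left out (log2 fold change -0.01 and -0.06).

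In the dense-core vesicle group, Vgf encodes a granin-like precursor of several neuropeptides (chr5:137026392-137033351, plus strand). Vgf ranged from 292.9 CPM in adropin mouse 7_4 through a median of 334.1 to 366.8 in mouse 2_1, and from 319.8 in saline mouse 8_1 through 366.4 to 400.4 in mouse 6_2. Of the adropin mice 7 of 8 were below the saline median, and 4 saline mice were above every adropin mouse. The means were 333 ± 23.0 and 365 ± 30.9 CPM, a fold of 0.912 with a 95% interval of 0.836 to 0.995. The log2 fold change was -0.13 (SE 0.060, unadjusted p = 0.0398, adjusted p = 0.874, edgeR; exact permutation p = 0.0373). The call was kept in 5 of the 16 fits with 1 mouse left out (without adropin mice 1_3 or 2_1, or saline mice 2_3, 5_3 or 8_1). In the other 11 it was lost, with unadjusted p up to 0.0948 without adropin mouse 2_4 (edgeR). Over the 16 fits the log2 fold change stayed between -0.162 and -0.109. With mice blocked by the first number of the label, the log2 fold change of Vgf was -0.161 (SE 0.106, unadjusted p = 0.156, edgeR). Blocked by the second, it was -0.109 (SE 0.071, unadjusted p = 0.146, edgeR). The call was thus lost in both blocked fits, while the log2 fold change remained negative and its SE was larger than without blocks.

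Scg2, secretogranin II, which sorts cargo into dense-core vesicles and yields the peptide secretoneurin, lies at chr1:79434669-79440120 (minus strand). Scg2 ranged from 104.4 to 139.3 CPM with adropin (median 122.1) and from 106.7 to 164.5 with saline (median 132.8). Of the adropin mice 7 of 8 were below the saline median, and the fold was 0.909 (95% interval 0.803 to 1.03, unadjusted p = 0.124, edgeR). Without saline mouse 5_4, the lowest of its group, the log2 fold change of Scg2 was -0.18 with an unadjusted p of 0.0431, and without saline mouse 5_3, the highest, it was -0.08 with an unadjusted p of 0.355.

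Pcsk1, the proprotein convertase that cleaves precursors such as pro-opiomelanocortin inside the vesicle, lies at chr13:75089826-75134861 (plus strand). Pcsk1 ranged from 9.326 to 28.30 CPM with adropin (median 18.29) and from 6.630 to 19.68 with saline (median 17.87). Of the adropin mice 4 of 8 were below the saline median, and the fold was 1.18 (95% interval 0.845 to 1.65, unadjusted p = 0.310, edgeR). The interval is wide enough to hold a fold of 1.5 upwards, so at this spread a difference of that size was not excluded.

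The spread between mice of a group differed by gene. In adropin mice the coefficient of variation was 64.1% for Npas4, 52.8% for Arc and 34.2% for Pcsk1, and from 6.91% to 18.4% for the other 7 genes. In saline mice it was 34.1% for Arc, 30.7% for Pcsk1, 27.3% for Npas4 and 22.7% for Inhba, and from 7.94% to 18.1% for the others. The highest Npas4 value was 6.71 times the lowest in adropin mice and 2.36 times in saline mice. Without adropin mouse 5_5 this ratio was 3.54 and the coefficient of variation of Npas4 41.2% (n = 7).

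The extremes of the groups were unevenly spread over the mice. Saline mouse 5_4 was the highest or lowest of its group for 8 of the 10 genes: lowest for Arc, Npas4, Scg2 and Pcsk1 and highest for Bdnf, Nptx2, Nrn1 and Inhba. Its total of 35026503 counts was the lowest of the 16 mice. Adropin mouse 7_4 was lowest for Bdnf, Nptx2, Vgf and Inhba, and mouse 2_1 highest for Bdnf, Nptx2, Vgf and Pcsk1. In mouse 7_4 the transcript Gm42418 took 4.98% of counts, the largest share of the series, against 0.840% to 3.96% in the other mice. Its median share was 2.53% in adropin mice and 1.54% in saline mice. Adropin mouse 3_3 was lowest for Arc, Npas4 and Scg2. The part of depth or of Gm42418 in these values was not tested.

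Levels were compared between genes as CPM per kilobase of annotated exon. Vgf stood first at 117 ± 10.5 (mean ± SD over 16 mice), followed by Arc at 107 ± 50.5 and Nrn1 at 78.0 ± 8.44. Scg2 was at 50.1 ± 6.55, Nptx2 at 19.4 ± 3.02, Homer1 at 10.4 ± 1.59 and Npas4 at 8.41 ± 3.87. Bdnf was at 4.64 ± 0.485, Pcsk1 at 3.06 ± 1.01 and Inhba at 0.540 ± 0.0948. The dense-core vesicle genes Vgf and Scg2 were thus among the 4 highest and their processing enzyme Pcsk1 among the 2 lowest.

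Neighbours in this order were not all separable. Vgf exceeded Arc in 7 of 16 mice, Arc exceeded Nrn1 in 9, and Homer1 exceeded Npas4 in 11, so on this length these neighbours did not differ beyond their spread. Npas4 exceeded Bdnf in 14 mice, and Bdnf exceeded Pcsk1 in 14. The steps from Nrn1 to Scg2, Scg2 to Nptx2, Nptx2 to Homer1 and Pcsk1 to Inhba held in 16 of 16 mice. The place of Homer1 depended on the length used: per kilobase of the longest transcript Homer1 was at 21.8 ± 3.33, Nptx2 at 19.4 ± 3.02 and Npas4 at 9.17 ± 4.22, and Homer1 was above Nptx2 in 13 of 16 mice and above Npas4 in 16. In saline mice alone Arc had the higher mean, 133 ± 45.5 against 123 ± 10.4 for Vgf, and in adropin mice Vgf did, 112 ± 7.72 against 79.7 ± 42.1. Nrn1 was at 79.5 ± 10.5 in saline mice and 76.5 ± 6.04 in adropin mice. In the same order Homer1 was at 10.0 ± 1.11 and 10.7 ± 1.97, and Npas4 at 9.88 ± 2.7 and 6.93 ± 4.45.

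**Figure D3:**
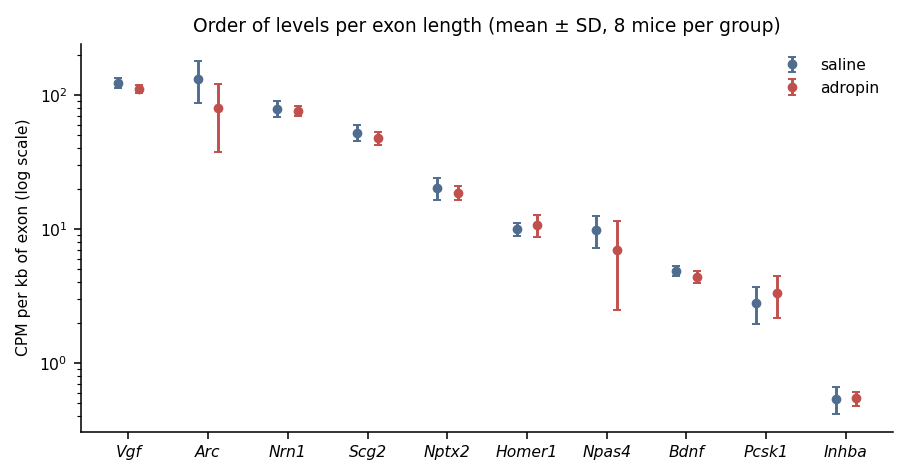
Level per kilobase of exon of each gene on a log axis, as mean ± SD of 8 mice per group (saline blue, adropin red), ordered by the mean over all 16 mice. The order runs from Vgf and Arc down to Inhba at 0.540, and Arc and Npas4 have the longest bars in adropin mice.

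Whether the genes varied together from mouse to mouse was examined after group means were taken off the log2 values, over 16 mice and 45 pairs, with permutation p-values (100000 draws, two-sided) adjusted over the pairs. The members did not move as a single block: 29 of 45 pairs had a Pearson r above 0, the median was 0.138 and the range -0.815 to 0.78. At an adjusted p below 0.05, 3 pairs passed.

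Bdnf went with Vgf (r = 0.78, permutation p = 0.00038, adjusted p = 0.0124; rho = 0.747, permutation p = 0.00174, adjusted p = 0.0391), and r was 0.698 without the 2 mice farthest from the median. Bdnf also went with Nptx2 (r = 0.721, permutation p = 0.001, adjusted p = 0.015; rho = 0.80, permutation p = 0.00048, adjusted p = 0.0216; r = 0.709 without 2 mice). In both pairs r was above 0.7 within each treatment group, at 0.881 with adropin and 0.728 with saline for Bdnf and Vgf and at 0.759 and 0.789 for Bdnf and Nptx2.

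Nrn1 and Pcsk1 varied in opposite directions (r = -0.815, permutation p = 0.00055, adjusted p = 0.0124), at -0.737 in adropin mice and -0.887 in saline mice. Their rank correlation missed the threshold after adjustment (rho = -0.632, permutation p = 0.00806, adjusted p = 0.121), and r was -0.652 without the 2 farthest mice. The mice with the lowest Pcsk1 and the highest Nrn1 of their groups, adropin 4_3 and saline 5_4, were also those with the lowest totals, 35185051 and 35026503 counts. Adropin mouse 7_4, with 35857014 counts, held 15.47 CPM of Pcsk1 and 165.3 of Nrn1. Saline mouse 8_3, with 46538312 counts, held 9.687 CPM of Pcsk1 and 205.5 of Nrn1. The part of depth was not tested. The next pairs upwards were Scg2 with Pcsk1 (r = 0.586, rho = 0.50), Arc with Scg2 (r = 0.583, rho = 0.53) and Nrn1 with Vgf (r = 0.583, rho = 0.553). None of these passed adjustment (permutation p = 0.0236, 0.0202 and 0.0292; adjusted p = 0.177, 0.177 and 0.188; for rho, permutation p = 0.0544, 0.0406 and 0.0369; adjusted p = 0.245, 0.236 and 0.236), and without 2 mice r was 0.407, 0.363 and 0.482. The lowest pairs after Nrn1 and Pcsk1 were Nrn1 with Scg2 (r = -0.51, rho = -0.421) and Nptx2 with Scg2 (r = -0.491, rho = -0.382), with adjusted permutation p of 0.263 and 0.277 (raw 0.0686 and 0.0801; for rho, raw 0.138 and 0.165, adjusted 0.414 for both), and without 2 mice r was -0.418 and -0.27.

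**Figure D4:**
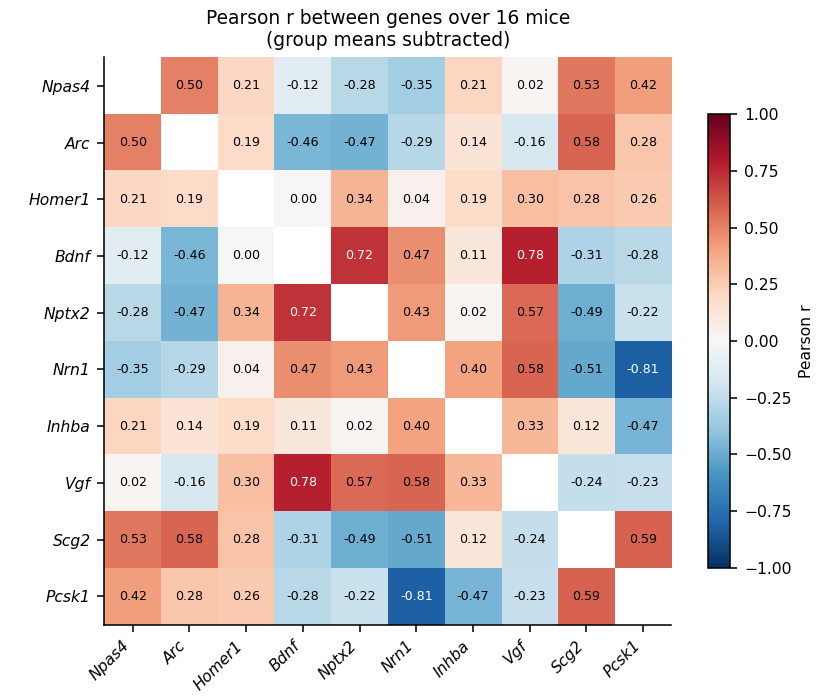
Pearson r of each pair of genes over 16 mice, on log2 values with the mean of each treatment group subtracted; red is positive and blue negative. Bdnf, Nptx2, Nrn1 and Vgf have positive r with each other, Arc, Npas4, Scg2 and Pcsk1 likewise, and values between these groups of genes are mostly negative, down to -0.815 for Nrn1 with Pcsk1. Within these groups of genes only Bdnf with Vgf and with Nptx2 passed adjustment, r was -0.193 for Arc with Pcsk1 and 0.0626 for Nptx2 with Nrn1 without 2 mice, and saline mouse 5_4 was the lowest of its group for Arc, Npas4, Scg2 and Pcsk1 and the highest for Bdnf, Nptx2 and Nrn1.

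The members were also set against Fos, the AP-1 factor in common use as a mark of recent neuronal firing, a relation chosen after the data were seen (10 relations, group means subtracted, 16 mice). Arc followed Fos most closely (r = 0.926, permutation p = 1e-05, the smallest these draws can give, adjusted p = 0.0001; rho = 0.909, permutation p = 4e-05, adjusted p = 0.0004), with r = 0.884 without 2 mice. Npas4 (r = 0.698, permutation p = 0.00358, adjusted p = 0.0179) and Scg2 (r = 0.651, permutation p = 0.00745, adjusted p = 0.0248) passed as well. By rank Scg2 passed (rho = 0.635, permutation p = 0.00986, adjusted p = 0.0493) and Npas4 did not (rho = 0.515, permutation p = 0.0628, adjusted p = 0.209), and without 2 mice r was 0.52 for Npas4 and 0.427 for Scg2. The other 7 genes did not pass: r was -0.347 for Bdnf and -0.127 for Vgf, the other members called lower (permutation p = 0.214 and 0.648, adjusted p = 0.306 and 0.781; rho = -0.353 and -0.0118, permutation p = 0.204 and 0.97, adjusted p = 0.408 and 0.97; r = -0.0574 and 0.0863 without 2 mice). Fos itself was 28.5 ± 14.3 CPM with adropin and 57.1 ± 18.2 with saline (log2 fold change -0.997, unadjusted p = 0.00221, adjusted p = 0.874, edgeR).

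**Figure D5:**
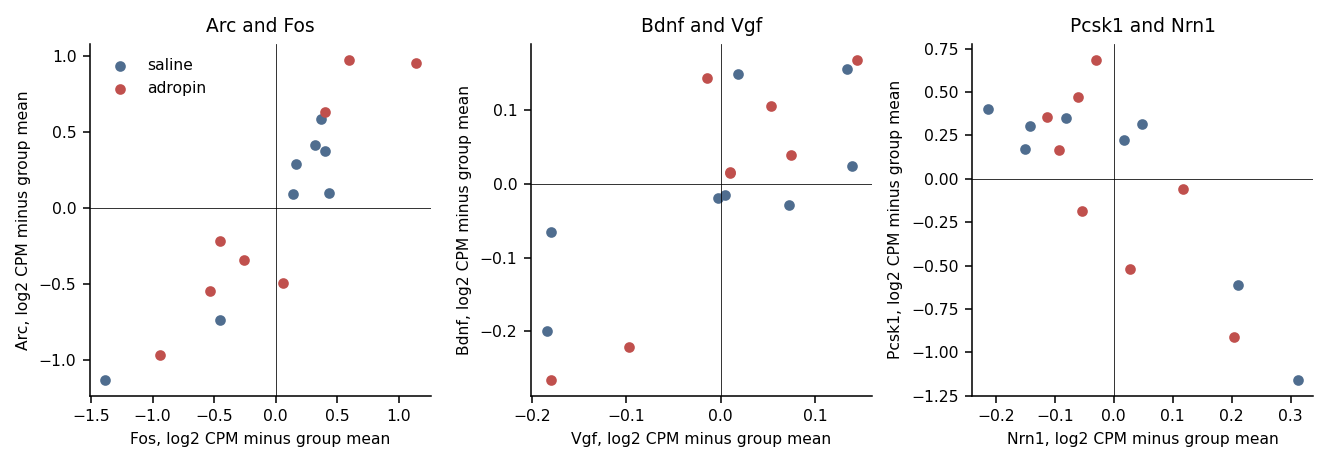
Log2 CPM minus the group mean in each mouse for Arc against Fos, Bdnf against Vgf and Pcsk1 against Nrn1; dots are mice (8 saline in blue, 8 adropin in red). Arc and Fos vary together (r = 0.926), as do Bdnf and Vgf (0.78), and Pcsk1 is lowest in mice with high Nrn1 (-0.815).

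For each member the 3 genes of 14949 with the highest Pearson r over the same 16 mice are given as a description, with no test, since they are the top of a long ranking and all points share their libraries. Arc was most like Dusp1, a MAP kinase phosphatase induced by stimulation, at 0.961, Ccn1 at 0.933 and Arl4d at 0.932, and 47 genes exceeded 0.8. Npas4 was most like Fadd (0.844), the microRNA gene Mir132 (0.791) and Fam160a1 (0.775), and 1 gene exceeded 0.8. Homer1 was most like Hdac4 (0.911), Azi2 (0.787) and Cx3cl1 (0.783).

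Bdnf was most like Idh1 (0.832), Fabp7 (0.818) and Sumf1 (0.816). Nptx2 was most like Fam219b (0.792), 4930526A20Rik (0.787) and Ocel1 (0.78), and Inhba most like Mrps35 (0.875), Plcl2 (0.859) and Twf2 (0.856). Vgf was most like Apoo-ps (0.823), Ndufb2 (0.815) and Bdnf (0.78), the only case in which a member was among the 3 nearest of another. Scg2 was most like Astn2 (0.919), Got2 (0.899) and Tlk2 (0.896), with 131 genes over 0.8. Nrn1 was most like Tceal8 (0.92), Timm10 (0.91) and Tpm1 (0.908), with 317 genes over 0.8. Pcsk1 was most like Mast1 (0.967), Cry2 (0.962) and Zfp317 (0.958), with 1215 genes over 0.8, the most of any member, against at most 4 for Npas4, Homer1 or Bdnf.

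The partners of the members were counted from lists of the same pathways, chosen with earlier results of these data known, so the counts are descriptions. Over all 14949 genes 2.13% were lower and 1.86% higher at an unadjusted p below 0.05, and 50.8% were below 0. Among other activity-regulated synaptic genes 3 of 14 were lower with adropin at an unadjusted p below 0.05 and none higher, with 12 of 14 below 0 and a median log2 fold change of -0.05. The 3 were Rasd1, a Ras-like G protein (6.45 ± 2.50 against 10.5 ± 2.91 CPM, log2 fold change -0.69, unadjusted p = 0.0050, edgeR), Gpr3, a constitutively active receptor (-0.38, unadjusted p = 0.00463, edgeR), and Dnajb5, a heat shock protein cofactor (-0.24, unadjusted p = 0.00905, edgeR). Among the inducible transcription factors, set beside the effectors for comparison, 8 of 12 were lower and none higher, with 11 of 12 below 0 and a median of -0.50. These were Egr2 (-1.19), Fos (-0.997), Nr4a1 (-0.65), Junb (-0.64), Egr4 (-0.55), Fosb (-0.53), Nr4a3 (-0.46) and Fosl2 (-0.35). No test of the difference between the effectors and the factors was made.

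The receptors and partners listed here gave no calls, where 2.13% of all genes were called lower and 1.86% higher, a share at which short lists often hold none. Of 7 neurotrophin and receptor genes tested of 9, none passed (median 0.03), and the smallest p was that of Ntrk2, the Bdnf receptor TrkB, at 573 ± 91.5 CPM with adropin and 496 ± 89.4 with saline (log2 fold change 0.21, unadjusted p = 0.0890, edgeR). Of 8 pentraxin and AMPA receptor genes none passed (median 0.04), with Gria3 nearest (0.11, unadjusted p = 0.169, edgeR). Of 4 partners of Arc none passed, with Sh3gl3, an endophilin of the endocytic machinery, nearest (-0.09, unadjusted p = 0.337, edgeR), and of 2 dimer partners of Npas4 none passed, with Arnt2 nearest (0.20, unadjusted p = 0.106, edgeR).

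In the regulated secretory pathway 1 of 12 genes passed, Pcsk2, the other prohormone convertase, which was higher with adropin (348 ± 28.3 against 314 ± 25.5 CPM, log2 fold change 0.15, unadjusted p = 0.0267, edgeR), and 5 of 12 were below 0. Over all genes 2.13% passed as lower and 1.86% as higher, and 50.8% were below 0. In activin signalling 13 of 14 genes were tested and 2 passed: Acvr1c, the receptor ALK7, was higher (0.31, unadjusted p = 0.0254, edgeR), and Smad7, an inhibitor of the pathway, was lower (-0.15, unadjusted p = 0.0389, edgeR). Of 9 Homer and metabotropic receptor scaffold genes, Homer3 was lower (6.54 ± 0.860 against 9.87 ± 6.11 CPM, log2 fold change -0.60, unadjusted p = 0.0259, edgeR). Without saline mouse 8_3, the mouse with high cerebellar markers, Homer3 had a log2 fold change of -0.26 (unadjusted p = 0.0824, edgeR) and Smad7 -0.12 (unadjusted p = 0.0888, edgeR). Pcsk2 and Acvr1c still passed (unadjusted p = 0.0479 and 0.0286, edgeR), as did the 3 synaptic genes and the 8 transcription factors.

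Markers of brain regions that may differ between dissections gave these values, beside 2.13% of all genes called lower and 1.86% higher. Of 5 cortical markers 2 were higher with adropin at an unadjusted p below 0.05, Cux2 (log2 fold change 0.31) and Rorb (0.35), and the summed level ran from 484 to 834 CPM with adropin and from 402 to 660 with saline. Of 4 tested hippocampal markers all were below 0 and none passed (median -0.55), with sums from 36.4 to 104 CPM against 38.5 to 139. All 5 tested choroid plexus markers were lower with adropin at the same threshold, as were 1 of 2 tested cerebellar and 1 of 4 thalamic markers, and 1 of 5 microglial markers was higher. The hypothalamic markers Hcrt, Pmch and Agrp were below 1 CPM in every mouse. Without saline mouse 8_3, 2 choroid plexus, 1 hippocampal, 1 thalamic and 1 excitatory neuron marker were lower and 1 cortical and 1 microglial marker higher. Of the members only Arc then stayed below an unadjusted p of 0.05 (log2 fold change -0.69, unadjusted p = 0.0385, edgeR). Bdnf had a log2 fold change of -0.153 (unadjusted p = 0.0547, edgeR) and Vgf -0.123 (unadjusted p = 0.0647, edgeR), against -0.148 and -0.133 with all mice. The part of regional make-up in the values of Arc, Bdnf and Vgf was not tested.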

How the data were processed

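RNA-seq of brain tissue from 16 mice (8 adropin, 8 saline) was used. Per the study's methods, poly-A RNA with a RIN above 8.0 was read as paired 150-base reads, aligned with STAR to the mouse genome of Ensembl (GRCm38) and counted per gene with featureCounts; the deposited counts are raw, and the deposited CPM of the authors are scaled to the reads of each library, used in 1 alternative. The strand setting is not given in the sources used here. Columns of the authors' own comparison (fold changes and p-values) were not used, and 276 repeated entries were dropped.

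The members and all lists were chosen with earlier results of these data known. Ribosomal RNA genes (355) were left out, genes had to exceed 1 CPM in 7 or more mice, and counts were scaled by TMM and tested with edgeR 4.0.16 (quasi-likelihood, adropin against saline, R 4.3.3) with Benjamini-Hochberg adjustment over 14949 genes. A call was an unadjusted p below 0.05, the p cut-off of the study. Printed levels are TMM-normalized CPM. The fitting steps were tested on simulated data. Correlations used scipy 1.17.1 and log2 CPM with a prior count of 2. Positions are from GENCODE for GRCm38 and promoters from RefSeq.

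All 10 members are named, as are the 3 genes most like each member and, of the pairs, the 5 highest and 3 lowest. Of the lists other than markers, each gene with an unadjusted p below 0.05 is named or, where none, that with the smallest p. Marker lists are given as counts and sums, with only some genes named. Alternatives were limma-voom and limma-trend (limma 3.58.1; log2 of deposited CPM + 1), DESeq2 1.42.0, other scalings and filters, label numbers as blocks, each mouse left out, and, added after seeing the data, exact permutation, the relation with Fos and the lists without saline mouse 8_3. No 2 mice of a group had counts that agreed within counting noise (56 pairs, with chi-square over its degrees of freedom from 7.15 to 152), so no library was counted as a duplicate. Member counts ran from 95 to 28733 per mouse. Counting error alone gives a coefficient of variation of 8.27% and 8.59% for Inhba in adropin and saline mice, against 12.2% and 22.7% measured, and of at most 4.26% for the other members.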

Additional observations from a re-analysis of the deposited data

Results flagged for a closer look

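Npas4 in adropin mouse 5_5 stood apart from its group at 68.7 CPM, with the nearest mouse of the group at 36.18. The gap was 0.556 of the range of the 8 mice, over the critical value of Dixon's test at 95%. This was the only flag among 40 comparisons (highest and lowest mouse of each group for 10 genes), where chance flags about 1 in 20 groups. The same mouse held 419.1 CPM of Arc, the second highest of its group, and the highest Fos of its group, 56.78 CPM.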

How the results depend on the processing

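Of 14 values that answer a comparison and moved, all concern the counts of members called. Members lower at an unadjusted p below 0.05 numbered 3 by edgeR, 4 by limma-voom and by limma-trend, 0 with the first label number as replicate block, 2 with the second (Arc and Npas4), and 1 to 3 over the 16 fits with 1 mouse left out; the count was 1 without adropin mice 2_4, 4_1, 4_3 or 7_4 or saline mice 6_1, 6_2, 7_1 or 8_3. Members that also passed a fold of 1.5 numbered 1 by edgeR, 2 by limma-voom and by limma-trend (Npas4 joining Arc at an unadjusted p = 0.035 and 0.0271), 0 with the first label number as replicate block, 2 with the second (Npas4, unadjusted p = 0.0156), and 1 to 2 with 1 mouse left out. Calls over all 14949 genes moved as well: 318 were lower by edgeR, 298 by limma-voom, 395 by limma-trend, 195 and 274 with the first and second block, and 192 to 524 with 1 mouse left out, and the members' counts are to be read against these. The sign of Inhba turned to -0.0253 and -0.0472 (log2) under the first and second replicate block, and ranged from -0.0583 to 0.0935 with 1 mouse left out. Whether the numbers pair the mice could not be settled. Only first numbers 2, 5 and 7 hold mice of both groups, so the fit blocked on the first number compares treatments within these alone. For each shared number the mean deviations of the 2 groups from their group means were correlated over genes. This gave 0.102, -0.141 and -0.0782 for first numbers and 0.218, -0.27 and -0.491 for second numbers. Each value rests on 1 to 3 mice per group, too few to tell. Outside the blocks, Arc kept its call under every alternative run, Vgf too save in 11 fits with a mouse left out, and Bdnf also lost its call with no filter (unadjusted p = 0.0515, edgeR). The cause of these changes was not tested. In the order of levels 10 of 10 members kept their rank with library size only and 8 of 10 with the longest transcript as length (Homer1 and Nptx2 changed places), and 3 pairs passed under both other scalings. The median log2 fold change of all genes was farthest from 0 with library size as the only scaling, at -0.0236.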
